A study of Mus musculus with 48 samples.

Results

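Neutrophils carry a stock of antimicrobial and inflammatory proteins, and 7 genes for such proteins were followed here through postnatal growth of the mouse small intestine: Camp, S100a8, S100a9, Lcn2, Ltf, Ngp and Mpo. They were taken by symbol from a table of 54532 genes, in which each symbol matched 1 gene identifier. The tissue was whole-thickness bowel of C57Bl/6J mice, either the first 2 cm of duodenum past the pylorus or the last 2 cm of ileum before the caecum. The ages were day 0, 2, 4, 6 and 8, then week 2, 3 and 4, and 3 samples were taken per region and age. Mice of both sexes were used, usually with 2 or 3 ages drawn from a litter, and pups were kept with their mother for 21 days before chow was given. All groups were untreated, and the labels describe the housing of all mice as standard germ-free while also naming microbial exposures, so the germ status was not settled. The labels do not say that the samples of a group came from separate animals, so the p-values measure the spread between these samples, which may be technical. The samples numbered 3 at day 6 look exchanged between the regions and were left out, which left 46 samples in 16 groups.

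Neutrophils are short-lived white blood cells that develop in the bone marrow, and before birth in the liver, and fill their granules one type after another as they mature. Azurophil (primary) granules are filled first and hold myeloperoxidase, the product of Mpo, which makes hypochlorous acid. Specific (secondary) granules come later and hold lactoferrin (Ltf), lipocalin 2 (Lcn2), the cathelicidin precursor (Camp) and neutrophilic granule protein (Ngp). S100a8 and S100a9 encode the subunits of calprotectin, a cytosolic protein that withholds metal ions from microbes and is released at sites of inflammation. Transcripts of the granule genes are most abundant in the immature cells that build the granules, whereas S100a8 and S100a9 transcripts persist in mature neutrophils and monocytes. Epithelial cells can make lipocalin 2, lactoferrin and cathelicidin as well, the last known from the bowel lining of newborn mice.

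The members fall into a few genomic neighbourhoods. By GENCODE M21 on GRCm38, Camp (ENSMUSG00000038357, chr9:109847379-109849617, minus strand), Ngp (ENSMUSG00000032484, chr9:110419747-110423012, plus strand) and Ltf (ENSMUSG00000032496, chr9:111019271-111042767, plus strand) lie on chromosome 9. The gap from Camp to Ngp is 570.1 kb and the gap from Ngp to Ltf is 596.3 kb. S100a8 (ENSMUSG00000056054, chr3:90668978-90670035, plus strand) and S100a9 (ENSMUSG00000056071, chr3:90692632-90695721, minus strand) are 22.6 kb apart on chromosome 3. Lcn2 (ENSMUSG00000026822, chr2:32384633-32388252, minus strand) and Mpo (ENSMUSG00000009350, chr11:87793581-87804413, plus strand) stand alone. All are annotated as protein-coding genes, and their counts are over whole genes, exons together.

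Because Camp and Ltf were higher in the ileum and Ngp in the duodenum although all 3 lie on one stretch of chromosome 9, the sequences just before these genes are shown, together with that of S100a9. They are the parts of the 250 bases before the RefSeq start (GRCm38.p6) that lie outside the gene's own span in GENCODE M21. Each is printed 5′ to 3′ on the gene's strand, with letters of a C/EBP-type motif in capitals. C/EBP proteins are transcription factors of granulocyte development.
Camp (chr9:109849618-109849706, minus strand): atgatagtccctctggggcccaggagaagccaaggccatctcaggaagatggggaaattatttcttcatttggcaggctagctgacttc
Ngp (chr9:110419558-110419746, plus strand): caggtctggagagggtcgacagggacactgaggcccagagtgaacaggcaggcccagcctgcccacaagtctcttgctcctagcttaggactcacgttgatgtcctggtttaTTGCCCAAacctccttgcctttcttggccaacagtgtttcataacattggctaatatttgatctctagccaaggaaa
Ltf (chr9:111019042-111019270, plus strand): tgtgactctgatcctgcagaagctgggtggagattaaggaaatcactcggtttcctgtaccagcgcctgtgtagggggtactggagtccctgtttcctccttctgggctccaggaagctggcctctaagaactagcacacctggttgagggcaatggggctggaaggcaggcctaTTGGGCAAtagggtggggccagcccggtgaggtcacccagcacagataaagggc
S100a9 (chr3:90695722-90695971, minus strand): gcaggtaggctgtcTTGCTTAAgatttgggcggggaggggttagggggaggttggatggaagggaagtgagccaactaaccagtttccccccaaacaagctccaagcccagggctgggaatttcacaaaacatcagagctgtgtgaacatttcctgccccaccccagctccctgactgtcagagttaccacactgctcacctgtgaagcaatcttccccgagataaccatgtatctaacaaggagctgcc
The motif searched was TTGC, any 2 bases, then AA, on either strand, so that its reverse reads TT, any 2 bases, then GCAA. It occurred within the 250 bases of 4 of the 7 members, once each in S100a9, Lcn2 and Ltf and at 2 places in Ngp, and in 9.56% of 32851 promoters of that length. The Lcn2 match and the Ngp match at 11 to 4 bases before the start lie within those genes' GENCODE spans and are not printed. Camp, S100a8 and Mpo held no match in this window. A TATA box spelled TATAAA occurred in S100a8, 30 bases before its start and outside any stretch printed here, and in 12.4% of promoters. These matches describe letters in the reference sequence and were not tested for binding.

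Measured were estimated counts made by the authors, with totals of 16824021 to 65042327 per sample. They are given as CPM, counts per 1000000 of the library size after scaling by the trimmed mean of M values. A count of 3, used as the floor of detection, was worth 0.0537 to 0.200 CPM, and intervals given below cover counting error only. The members were rare transcripts in this tissue. Of 46 samples, Mpo had 3 or fewer counts in 38, Camp in 28, Ngp in 22, S100a8 in 17, S100a9 in 16, Lcn2 in 8 and Ltf in 0. Of the 7 members, 7 passed the filter on low counts, but Camp and Mpo each passed on 6 samples from 4 groups, so the groups where they were high decided that they were tested. The duodenum samples 2 and 3 of day 0 held transcripts of both Xist (745 and 816 CPM), a gene of female cells, and Ddx3y (21.1 and 25.1 CPM), a gene of the Y chromosome. Sample 3 of that group was also the deepest library. For the members, calls over age in the duodenum and between regions on day 0 that were lost without both samples are named below. The gene lists, the single marker genes and the correlations were not redone without them.

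Levels of different genes were set side by side per kilobase of exon, with the exons of all annotated transcripts of a gene merged. Camp and Ngp have 1 annotated transcript, Lcn2 has 6 (2623 bases merged) and Ltf has 12, so the order of genes is approximate. On this scale S100a9 led at birth in the duodenum with a group mean of 13.5 CPM per kb. It was followed by S100a8 (6.79), Ngp (5.16) and Ltf (1.81). Lcn2 (0.657), Camp (0.607) and Mpo (0.274 CPM per kb) were lower. In the ileum at birth Ltf led with 4.30 CPM per kb, followed by S100a9 (2.73) and S100a8 (1.23), and Mpo was at 0.00638. By week 4 Ltf led in both regions, with 0.705 CPM per kb of exon in duodenal tissue and 1.12 in ileal tissue.

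**Figure D1:**
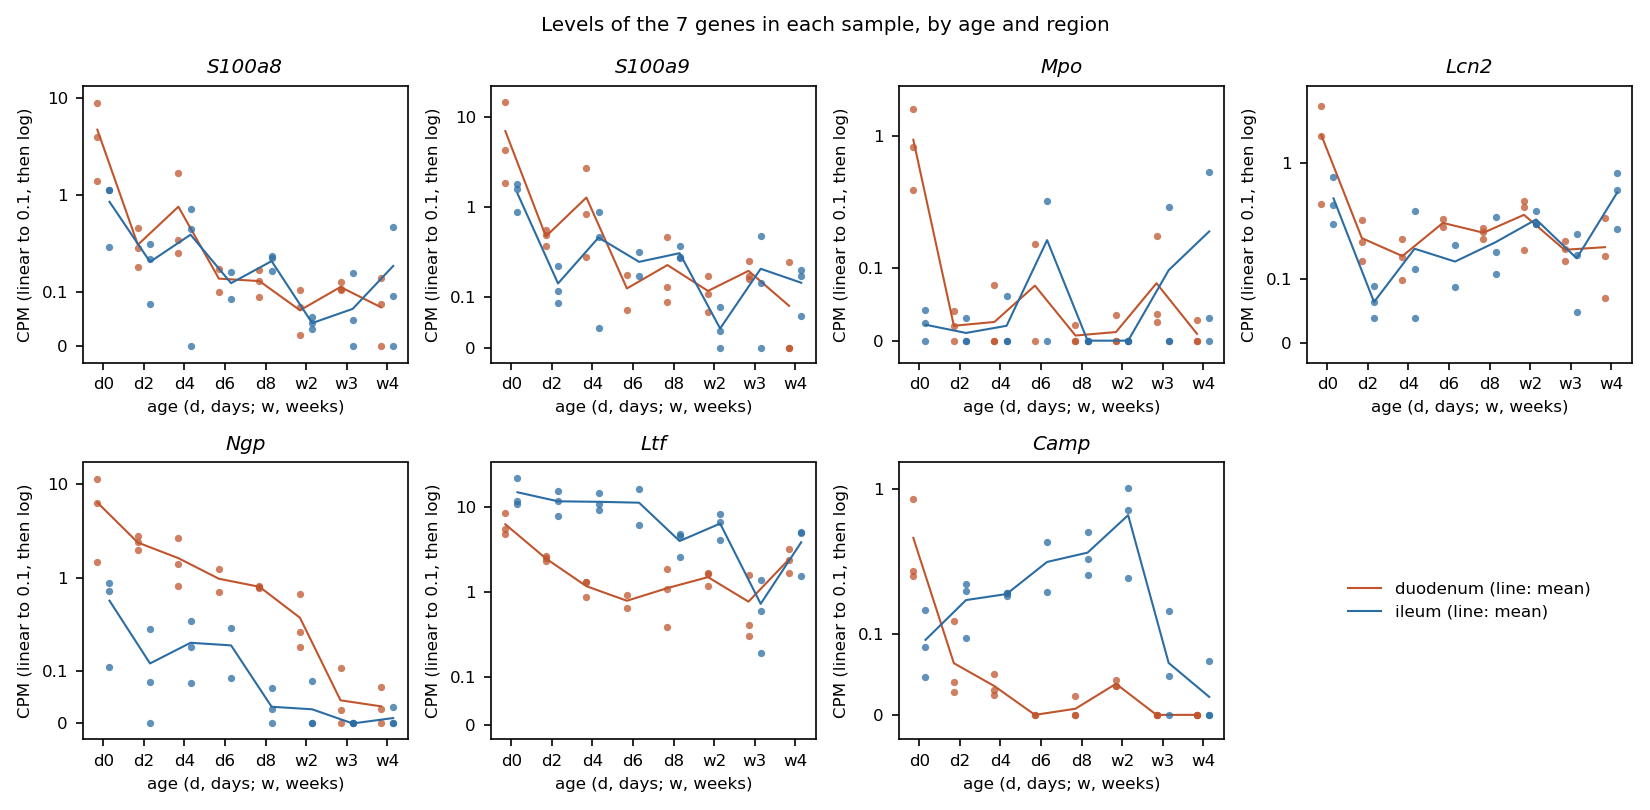
CPM of each member in every sample (points; y axis linear up to 0.1 and logarithmic above) by age, with duodenum and ileum in separate colours. The duodenum at day 0 holds the highest samples of S100a8, S100a9, Lcn2, Ngp and Mpo, whereas Ltf is highest in the ileum in the first week and Camp reaches 1.01 CPM in an ileum sample of week 2.

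Within the duodenum, every member had its highest group mean at birth and had lost most of its transcript by day 8. The effect of age over the 8 groups was called for 7 of 7 members at an edgeR adjusted p under 0.05, against 67.4% of all 21986 genes tested. From day 0 to day 8, 7 of 7 members fell, where 19.2% of genes were lower and 41.2% were called in either direction. Week 4 again had 7 of 7 lower than day 0, against 20.1% of genes lower and 40.5% called. The members' median log2 change to week 4 was -6.15, or -5.89 with Camp set at its bound, whereas the median over all genes tested was -0.02.

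The calprotectin subunits, S100a8 and S100a9, were already low by day 2. S100a8 was at 1.39, 3.92 and 8.84 CPM in the 3 samples of day 0, at 0.457, 0.287 and 0.181 on day 2, and at 0.0782, 0.139 and 0 CPM in week 4. Each day 0 sample lay above each sample of day 2, day 8 and week 4, although the highest and lowest day 0 samples were far apart. The log2 change to week 4 was -5.89 ± 0.93 (SE, edgeR adjusted p = 2.3e-06). S100a9 was at 1.89, 4.37 and 14.8 CPM on day 0, at 0.371, 0.493 and 0.564 on day 2 and at 0, 0.25 and 0 CPM in week 4. Its groups of day 0 and week 4 did not overlap, and its log2 change was -6.29 ± 0.99 (SE, edgeR adjusted p = 2.7e-06). On day 4 sample 3 stood apart, with 1.68 CPM of S100a8 and 2.74 CPM of S100a9 beside 0.256 to 0.837 CPM of either gene in the other samples of that day. Summed CPM of 7 red blood cell genes was 4427 in that sample and 559 to 580 in the others of day 4, and 713 to 2973 on day 0, and the part of blood in these values was not tested.

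Among the specific granule genes, Ngp had a lower group mean at each age than at the age before. Its values were 1.47, 6.24 and 11.2 CPM on day 0, 0.813, 0.801 and 0.776 on day 8, and 0.673, 0.181 and 0.263 in week 2. By week 3 they were 0.107, 0 and 0.0257 CPM and by week 4 they were 0, 0.0278 and 0.0707. The order of ages was kept without overlap between day 0, day 8, week 2 and week 3, and week 3 overlapped week 4. Day 2 (1.96 to 2.75 CPM) and day 4 (0.813 to 2.61 CPM) overlapped day 0, and sample 1 of day 0 lay below every day 2 sample. Summed over samples, day 0 held 244 times the level of week 4, with a 95% counting interval of 83.3 to 1187, and the edgeR adjusted p was 7.6e-08. Between week 2 and week 3 Ngp fell by 2.70 on the log2 scale (SE 0.93, edgeR adjusted p = 0.037), the 1 member called lower in that interval, where 18.3% of genes were called.

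Camp was at 0.25, 0.273 and 0.857 CPM on day 0 and at 0 to 0.123 CPM in the 20 duodenum samples of later ages. These 20 samples held 18 counts in all, and no count was found on day 6, in week 3 or in week 4. The week 4 level was at least 5.15-fold lower than that of day 0, taking 3 counts in each week 4 library as the limit (edgeR adjusted p = 1.2e-05). No sample of day 8 or week 4 overlapped day 0.

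Lcn2 was at 0.444, 1.69 and 3.04 CPM on day 0 and at 0.0707 to 0.471 CPM in all later duodenum samples, of which 1 exceeded the lowest day 0 sample. Its log2 change to week 4 was -3.16 ± 0.61 (SE, edgeR adjusted p = 5.4e-05), and the groups of day 0 and week 4 did not overlap. Ltf had the smallest log2 change of the 7 members in the duodenum. Its values were 5.46, 4.87 and 8.42 CPM on day 0, 1.87, 1.1 and 0.388 on day 8, 0.412, 1.6 and 0.308 in week 3 and 1.67, 3.22 and 2.4 in week 4. Day 0 stood above every later sample, and week 4 stood above week 3 without overlap. From day 0 to week 4 Ltf changed by -1.37 ± 0.50 on the log2 scale (SE, edgeR adjusted p = 0.027), and from week 3 to week 4 it rose by 1.72 ± 0.54 (SE, edgeR adjusted p = 0.03). It was the 1 member called between those weeks, where 12.7% of genes were called.

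Mpo, the azurophil granule enzyme, was at 0.388, 0.82 and 1.6 CPM on day 0, or 14, 18 and 88 counts, and had at most 6 counts in any later duodenum sample. Day 0 did not overlap any later age. With 1 count in week 4 against 120 on day 0, the level at birth was 109 times that of week 4, with a 95% counting interval of 19.2 to 4343 (edgeR adjusted p = 0.0014). Over the 4 intervals from day 0 to day 8, week 2, week 3 and week 4, 9 of 28 member tests in the duodenum were called, 7 of them from day 0 to day 8. The background over the same intervals was 22.0%, and 0 of 7 members were called from day 8 to week 2, where 15.7% of genes were called.

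The duodenum results rest in part on day 0 samples 2 and 3. Without both samples, the age effect of Lcn2 (edgeR adjusted p = 0.37) and Mpo (0.12) was not called. In that fit S100a8, S100a9, Ngp and Camp were still called lower in week 4, whereas Ltf (log2 change -1.16, edgeR adjusted p = 0.22), Lcn2 (-1.20, 0.27) and Mpo (-4.87, 0.063) were not. In the comparison of day 8 with day 0, Lcn2 (-0.93, 0.38) and Ngp (-0.99, 0.44) were not called without them. Ltf was also not called from day 0 to week 4 without sample 3 of day 0 alone (-1.04, edgeR adjusted p = 0.13) or without sample 1 or 3 of week 4 (0.13 and 0.069). The Ngp step to week 3 was lost without sample 1 of week 2 (0.21) or sample 2 or 3 of week 3 (0.13 and 0.12). The Ltf rise to week 4 was lost without sample 1 or 3 of week 3 (0.16 each) or sample 2 or 3 of week 4 (0.14 and 0.058). With changes of processing counted too, the Ltf change from day 0 to week 4 was lost in 6 of 15 refits. The Ngp step was lost in 6 of 13 refits and the Ltf rise in 7 of 14.

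**Figure D2:**
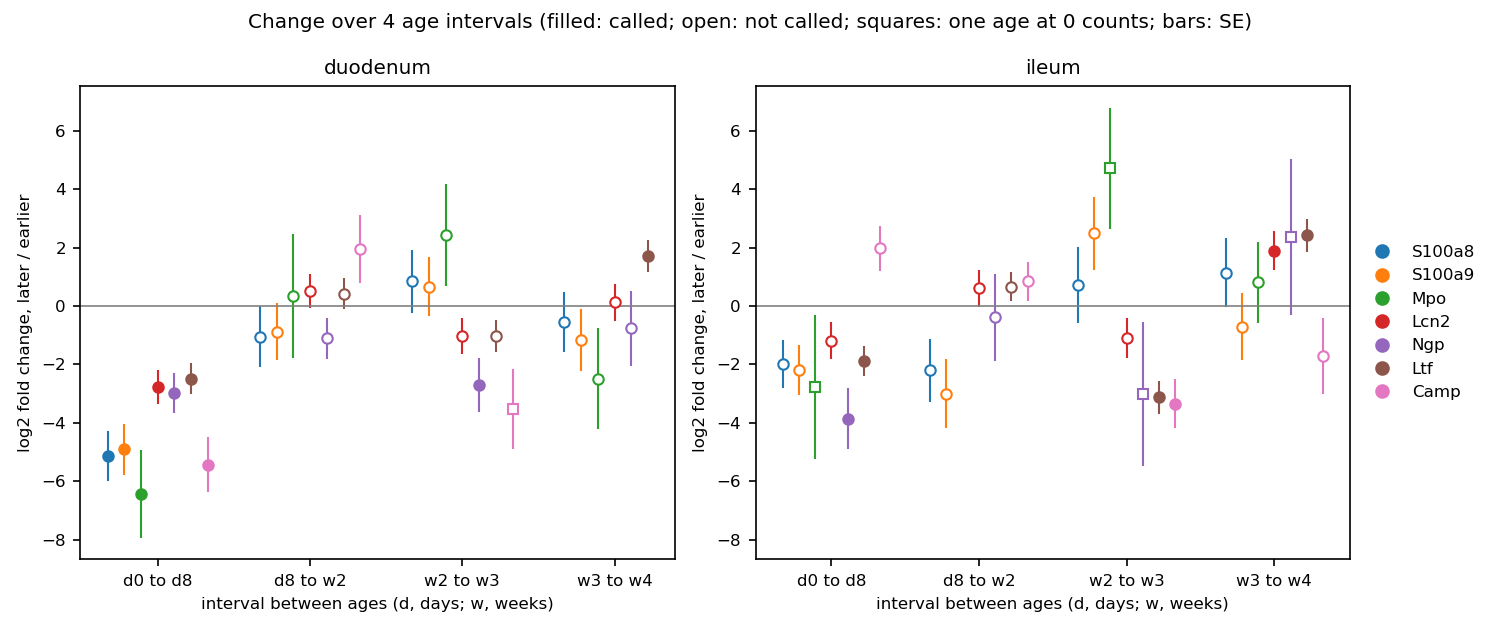
Log2 fold change of each member over 4 intervals (day 0 to day 8, then to week 2, 3 and 4), with duodenum and ileum in separate panels and error bars of 1 SE. In the duodenum the first interval holds 7 calls out of 7, and in the ileum the calls are Ltf in 3 intervals, Ngp in the first, Camp at week 3 and Lcn2 at week 4.

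In the ileum the members did not move as one set: Ltf, Ngp and the calprotectin genes were lower in week 4 than at birth, whereas Camp was highest in week 2 and Lcn2 was not called between birth and week 4. The effect of age was called for 6 of 7 members, against 58.7% of genes, with Mpo at an edgeR adjusted p of 0.058. From day 0 to week 4, 4 of 7 members fell (Ltf, Ngp, S100a8 and S100a9), against 20.4% of genes lower and 41.9% called. The members' median log2 change was -2.22 and the median over all genes tested was 0.08. From day 0 to day 8, 2 of 7 were called, both lower, against 19.3% of genes called and 10.7% lower.

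Per kilobase of exon, Ltf led the 7 members in the ileum except in week 3. There S100a9 stood above it in group mean (0.399 against 0.212 CPM per kb). Ltf was at 22.1, 10.8 and 11.6 CPM on day 0, at 6.12 to 16.3 CPM in the samples of day 2 to day 6, and at 2.58, 4.75 and 4.61 on day 8. It was then at 4.13, 6.66 and 8.34 CPM in week 2, 0.6, 1.4 and 0.193 in week 3 and 5.01, 5 and 1.54 in week 4. The first 3 ages after birth overlapped day 0, day 8 lay below it, and week 3 lay below both week 2 and week 4 without overlap. Ltf fell by 3.12 on the log2 scale from week 2 to week 3 (SE 0.57, edgeR adjusted p = 4.4e-05) and rose by 2.42 from week 3 to week 4 (SE 0.57, edgeR adjusted p = 0.0024). Its change from day 0 to week 4 was -1.93 ± 0.50 (SE, edgeR adjusted p = 0.0021).

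Camp had its highest ileal level in week 2. It was at 0.148, 0.0835 and 0.0475 CPM on day 0, at 0.33, 0.509 and 0.255 on day 8 and at 0.245, 0.721 and 1.01 in week 2. In week 3 it was at 0, 0.0483 and 0.145 CPM, and in week 4 at 0, 0 and 0.0668. Each sample of day 8 and week 2 lay above each sample of day 0, week 3 and week 4. From day 0 to day 8 the log2 difference was 1.98 ± 0.77 (SE) and did not pass the test (edgeR adjusted p = 0.068). From week 2 to week 3, around the change from milk to chow, Camp fell by 3.34 on the log2 scale (SE 0.82, edgeR adjusted p = 0.0021), and Camp and Ltf were the 2 of 7 members called in that interval, where 26.8% of genes were called.

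Both calprotectin genes were lower in week 4 than at birth in the ileum too. S100a9 was at 0.887, 1.59 and 1.81 CPM on day 0 and at 0.175, 0.0621 and 0.2 in week 4, with no overlap and a log2 change of -3.41 ± 1.00 (SE, edgeR adjusted p = 0.0056). S100a8 was at 0.296, 1.13 and 1.14 CPM on day 0 and at 0, 0.0931 and 0.468 in week 4, so that these groups overlapped. Its log2 change was -2.33 ± 0.90 (SE, edgeR adjusted p = 0.035), and the call was lost without sample 2 or 3 of day 0 (0.084 and 0.10) or sample 1 or 2 of week 4 (0.12 and 0.14). With changes of processing counted too, the S100a8 call was lost in 6 of 14 refits.

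Ngp was at 0.111, 0.877 and 0.713 CPM on day 0 and had at most 1 count in each ileum sample of week 3 and week 4. With 1 count in week 4 against 54 on day 0, the level at birth was 37.3 times that of week 4 (95% counting interval 6.42 to 1501, edgeR adjusted p = 0.002). Lcn2 was high both at birth and in week 4. It was at 0.296, 0.752 and 0.428 CPM on day 0, at 0.16, 0.241 and 0.0482 in week 3 and at 0.583, 0.807 and 0.267 in week 4, which lay above week 3 without overlap but overlapped day 0. From week 3 to week 4 it rose by 1.90 ± 0.67 on the log2 scale (SE, edgeR adjusted p = 0.049), and Lcn2 and Ltf were the 2 of 7 members called in that interval, where 16.1% of genes were called. The Lcn2 call was lost without sample 1 or 3 of week 3 (0.13 and 0.14) or sample 1 or 2 of week 4 (0.076 and 0.22). With changes of processing counted too, it was lost in 7 of 13 refits.

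Mpo was at or near 0 in most ileum samples. The highest ileal values were 0.324 CPM in sample 2 of day 6, 0.289 in sample 3 of week 3 and 0.534 in sample 3 of week 4, or 10, 6 and 8 counts, each in 1 sample of its group. Over the 4 intervals, 6 of 28 member tests in the ileum were called, against 17.2% of all tests over these intervals, and 0 of 7 members were called from day 8 to week 2, where 6.64% of genes were called. The Ltf fall from day 0 to day 8 (log2 change -1.88, edgeR adjusted p = 0.0058) was lost without sample 1 of day 0 (-1.48, 0.052).

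Averaged over ages, Camp and Ltf were higher in the ileum and Ngp was higher in the duodenum, 3 of 7 members against 62.1% of all genes tested. The mean of the 8 group means of Ltf was 8.01 CPM in the ileum and 2.07 in the duodenum (log2 difference 1.89, SE 0.19, edgeR adjusted p = 1.5e-10). For Camp these means were 0.235 CPM in the ileum and 0.0757 in the duodenum (edgeR adjusted p = 8.4e-06), with 3 duodenum groups at 0. For Ngp they were 0.144 CPM in the ileum and 1.56 in the duodenum (edgeR adjusted p = 1.2e-06), with the ileum of week 3 at 0. No overall difference was called for S100a8 (log2 difference -0.41 ± 0.37), S100a9 (-0.62 ± 0.37) or Lcn2 (-0.44 ± 0.24, each with its SE). The Camp call was kept in 53 of 54 refits and lost without sample 3 of week 4 in the ileum. That was the 1 sample with a Camp count in either region at that age, so without it the week 4 difference had no counts to rest on. The fitted Camp difference was 2.41 to 3.10 on the log2 scale over these refits.

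At single ages, 18 of 56 member tests between regions were called, 10 higher and 8 lower in the ileum, against 22.6% of all such tests (10.7% higher and 11.8% lower). The share of genes called was 8.01% on day 2, 26.6% on day 4, 35.3% on day 6, 39.6% on day 8, 22.4% in week 2 and 14.2% in week 3, with 2, 3, 2, 3, 3 and 1 of 7 members called. The members' calls at day 0 were all lower in the ileum. S100a8 (log2 difference -2.46 ± 0.73, edgeR adjusted p = 0.037), Lcn2 (-1.83 ± 0.56, 0.044), Ngp (-3.47 ± 0.71, 0.0022) and Mpo (2 counts against 120, 0.022) made 4 of 7, where 6.10% of genes were called, although 1 Lcn2 value of the ileum lay within the duodenum's range. S100a9 (-2.30 ± 0.76, 0.068) and Camp (-2.35 ± 0.75, 0.057) did not pass, and Ltf was at 1.24 ± 0.48 (0.13). Without duodenum samples 2 and 3 of day 0 none of the 4 was called, and the log2 differences became -0.70 for S100a8, 0.13 for Lcn2, -1.37 for Ngp and -3.97 for Mpo. Leaving out sample 3 alone ended the calls of S100a8 (edgeR adjusted p = 0.36), Lcn2 (0.45) and Mpo (0.11). S100a8 was in addition lost without duodenum sample 2 (0.066) or any 1 ileum sample (0.063 to 0.21), Lcn2 without duodenum sample 2 (0.094) or ileum sample 1 or 3 (0.22 and 0.16), and Mpo without ileum sample 1 or 3 (0.12 and 0.094). The S100a8 and Lcn2 calls were also lost with no low-count filter (edgeR adjusted p = 0.087 and 0.065), with all 48 samples (0.076 and 0.091), with only the compared groups (0.095 and 0.15) and with a replicate block (0.14 and 0.24). The Ngp call was lost with only the compared groups (0.071).

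Ltf was higher in the ileum on day 2, 4, 6 and 8 and in week 2. On day 4 it was at 1.33, 0.887 and 1.31 CPM in the duodenum and at 14.5, 10.7 and 9.19 in the ileum, which made the ileum higher by 3.28 ± 0.54 on the log2 scale (edgeR adjusted p = 3.3e-05). The largest fitted difference, 3.82 ± 0.68, was on day 6, where each region had 2 samples (0.653 and 0.934 CPM against 6.12 and 16.3, edgeR adjusted p = 5.5e-05). With the 2 left-out day 6 samples included, the day 6 calls of Ltf and Camp were lost (0.74 each). In week 3 the regions overlapped, at 0.308 to 1.6 CPM in the duodenum and 0.193 to 1.4 in the ileum. In week 4 they overlapped again and were not called (log2 difference 0.68 ± 0.51, edgeR adjusted p = 0.32).

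Camp was higher in the ileum from day 4 to week 3. On day 6 it was at 0.434 and 0.194 CPM in the ileum and at 0 in both duodenum samples, at least 4.16-fold higher by the floor of 3 counts (edgeR adjusted p = 0.00089). On day 8 the ileum held 30 counts and the duodenum 1, a ratio of 49.4 with a 95% counting interval of 8.21 to 2016 (edgeR adjusted p = 0.00017). In week 2 the duodenum was at 0.0354, 0.0362 and 0.0438 CPM, below all 3 ileum samples given above (log2 difference 3.95, SE 0.82, edgeR adjusted p = 0.00078). The calls of day 4 (edgeR adjusted p = 0.045) and week 3 (0.042, 4 counts against 0) rested on few counts. That of day 4 was lost when any 1 of its 6 samples was left out (0.053 to 0.14), and that of week 3 when any 1 but ileum sample 1 was left out (0.063 to 0.35). Both were also lost with a replicate block (0.10 and 0.09), with no low-count filter (0.09 and 0.086) and with all 48 samples (0.11 and 0.12), and that of day 4 with DESeq2 (0.064).

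Ngp was lower in the ileum on day 2, 4 and 8 and in week 2, as on day 0. On day 2 it was at 2.37, 2.75 and 1.96 CPM in the duodenum and at 0.285, 0 and 0.0792 in the ileum (log2 difference -4.12, SE 0.82, edgeR adjusted p = 0.0008). On day 8 the duodenum stood at 0.776 to 0.813 CPM while the ileum had 3 counts in all, so that the duodenum was 22.1 times higher (95% counting interval 7.35 to 109, edgeR adjusted p = 0.001). In week 2 the ratio was 13.5 (4.28 to 68.8, edgeR adjusted p = 0.012), a call lost without duodenum sample 1 (0.07) or ileum sample 2 (0.075). Day 6 did not pass (-2.28 ± 0.95, 0.061), with no overlap between 2 samples on each side. At week 4, 0 of 7 members were called between regions, where 28.4% of genes were called.

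Whether the course over age differed between regions was tested with an interaction of region and age. It was called for 2 of 7 members, Camp (edgeR adjusted p = 0.0003) and Ltf (0.007), against 22.4% of genes. Lcn2 was at 0.052, Mpo at 0.073, S100a9 at 0.25, S100a8 at 0.29 and Ngp at 0.79. So for S100a8, S100a9 and Ngp the courses in duodenum and ileum were not shown to differ, although more calls over age were made in the duodenum. The number of members called rose to 4 without duodenum sample 1 of day 4 or without ileum sample 3 of week 3.

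**Figure D3:**
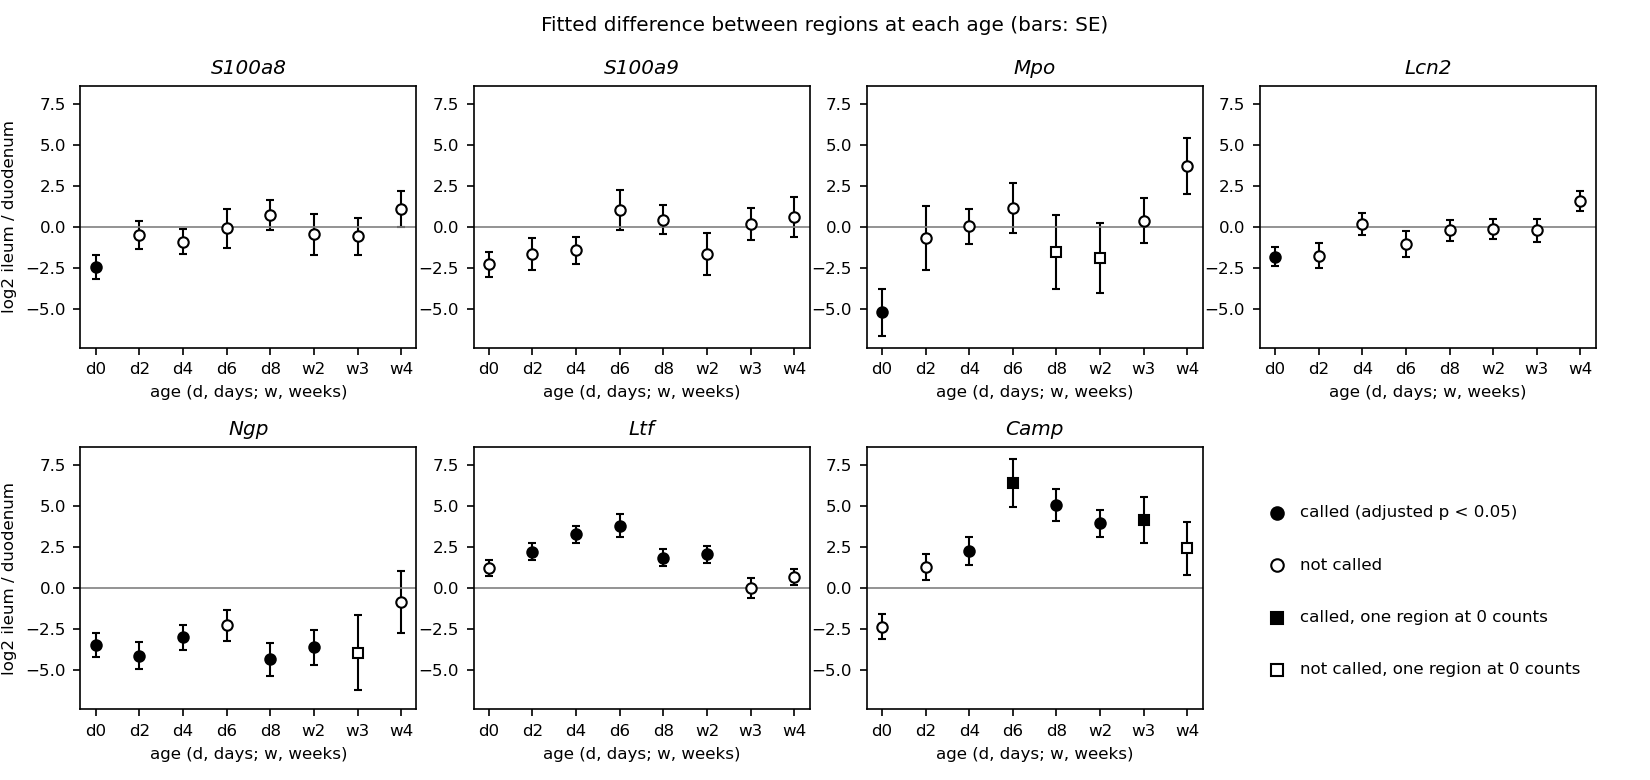
Log2 ratio of ileum to duodenum (fitted, error bars 1 SE) for each member at each of the 8 ages, with 0 marking equal levels. Ltf lies above 0 from day 0 to week 2, Ngp lies below 0 at every age, and Camp passes from below 0 at day 0 to above 0 at all later ages.

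Ordered by group mean, the duodenum of day 0 came first of 16 groups for S100a8, S100a9, Lcn2, Ngp and Mpo. For S100a8 and S100a9 it stood apart from the next group, the ileum of day 0 (0.854 ± 0.484 and 1.43 ± 0.48 CPM, SD, n = 3), and all other neighbours in their order overlapped. The order of Camp began with the ileum of week 2 (0.66 ± 0.388 CPM) and the duodenum of day 0 (0.46 ± 0.344), which overlapped. The order of Ltf began with the ileum of day 0 (14.8 ± 6.3 CPM), followed by day 2, 4 and 6 of the ileum, all overlapping. Of the 15 pairs of neighbours in each order, Ltf had 2 without overlap, Camp, Lcn2, S100a8 and S100a9 had 1 each, and Mpo and Ngp had 0. The gaps of Camp and Lcn2 each involved a day 6 group of 2 samples. Groups were ordered by the same values, and the share of such gaps over all genes was not computed, so these counts describe the orders only.

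Over the 46 samples the log2 CPM of S100a8 and S100a9 correlated at Pearson r = 0.91, with 0.94 over the 23 duodenum samples and 0.85 over the 23 ileum samples. These figures and the ones that follow are descriptions over samples that share libraries, ages and depth. Ngp correlated with S100a8 at 0.67 and with S100a9 at 0.66. In the duodenum Camp correlated with S100a8 at 0.83 and with Ngp at 0.71, and in the ileum at -0.15 and -0.10. Camp and Ltf, the pair that was higher in the ileum, correlated at 0.59 over all samples, at 0.70 within the duodenum and at 0.27 within the ileum.

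**Figure D4:**
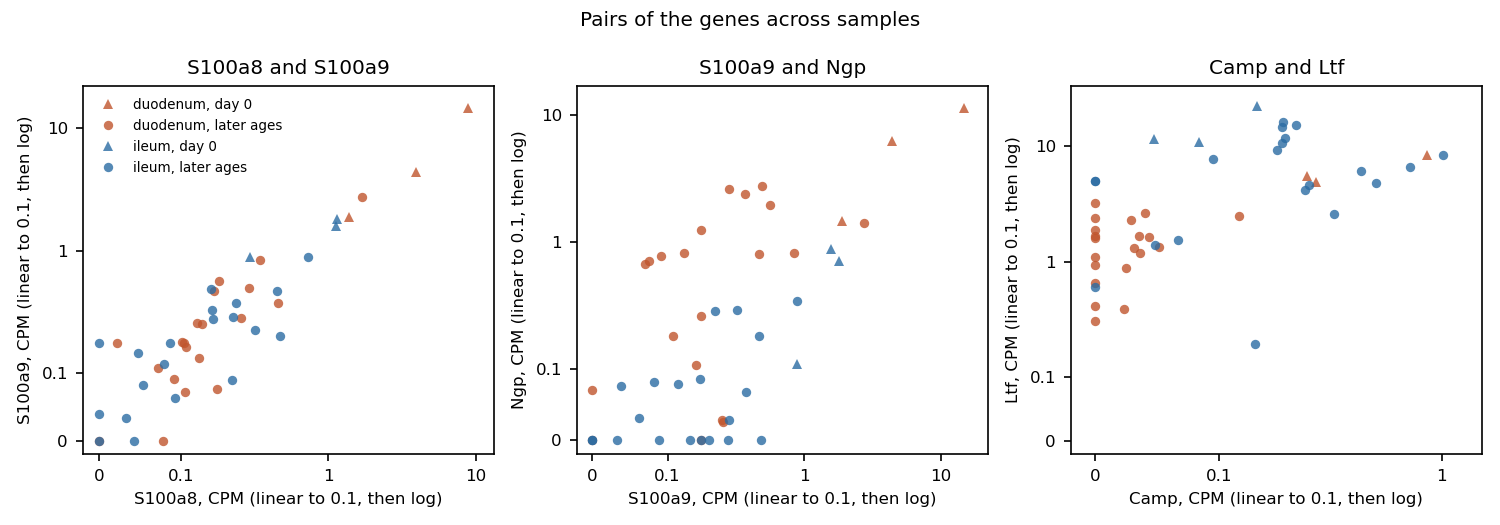
CPM of 3 pairs of members, 1 point per sample, coloured by region: S100a8 against S100a9, S100a9 against Ngp, and Camp against Ltf. Both axes are linear at the lowest values and logarithmic above, and samples taken at birth have their own marker shape. The calprotectin pair lies along a line in both regions (r = 0.91), and the highest Ngp values are all of duodenum samples.

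Among all other genes tested, the 3 most like S100a8 over the 46 samples were Stfa2 (r = 0.89), Cstdc5 (0.88) and Stfa2l1 (0.87), and the same 3 were most like S100a9 (0.89, 0.89 and 0.88). These are stefin and cystatin genes of near-identical copies, so their estimated counts may be shared among copies. The nearest to Mpo were Chil3 (0.74), a chitinase-like protein of granulocyte precursors and macrophages, and Mmp8 (0.72), neutrophil collagenase, then Gm37525 (0.68). Lcn2 was nearest to Gp1ba (0.62), a platelet receptor chain, Chil3 (0.62) and Stfa3 (0.61). Ngp was nearest to Apcs (0.90), serum amyloid P, then Insl5 (0.87) and Lipf (0.87). Ltf was nearest to Tmem38b, Fam117a (0.88 each) and Rnf130 (0.87), and Camp to Tchhl1 (0.82), Phldb3 and Lce6a (0.79 each).

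The labels give whole tissue, in which fewer cells of a type and less RNA per cell cannot be told apart. Several defining neutrophil genes were rare. Elane, neutrophil elastase, had 2, 2 and 7 counts in the duodenum samples of day 0 and 0 in the other 43 samples, and Ly6g, a surface marker of mouse neutrophils, had 0, 0 and 5 there and at most 1 elsewhere. Prtn3 (proteinase 3) had 3, 6 and 20 counts at that age and at most 5 elsewhere, and Mmp8 had 17, 26 and 124 and at most 26 elsewhere. Other neutrophil genes did not peak there. Cd177, a surface protein of neutrophils, reached 0.913 CPM in the duodenum on day 0 and 17.5 (562 counts) in another sample. Mmp9 (gelatinase B) reached 5.11 CPM there and 44.6 elsewhere, and Retnlg 1.26 there and 1.60 elsewhere. Csf3r, the receptor for the granulocyte growth factor, and the chemokine receptor Cxcr2 were present in every sample, with at least 13 and 32 counts. Of 7 azurophil granule and promyelocyte genes, 1 passed the filter: Cd63, a tetraspanin also made by many other cells, which fell from 216 ± 19.3 to 143 ± 5.93 CPM (SD, n = 3) in the duodenum (edgeR adjusted p = 0.0047).

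The list of specific and gelatinase granule genes, all 12 tested, split in the duodenum between day 0 and week 4, with 2 higher and 4 lower. In the ileum 5 were higher and 0 lower, and the list's median log2 changes were -0.42 and 0.75. Over all genes tested, 40.5% were called between these ages in the duodenum (20.1% lower) and 41.9% in the ileum (20.4% lower). These shares stand beside the week 4 counts of every list below. Chil3 was lower in the duodenum (1.47 ± 1.34 to 0.00869 ± 0.0151 CPM, edgeR adjusted p = 1.5e-05). Olfm4, also a gene of intestinal crypt cells, rose both in the duodenum (303 to 1656 CPM) and in the ileum (128 to 909 CPM). Lyz2, a lysozyme of phagocytes, and Cybb, the NADPH oxidase subunit of phagocytes, were called higher in the ileum (2.51 to 33.0 and 4.53 to 22.4 CPM) and not in the duodenum, and the difference between the regions' changes was not tested for them.

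Mature neutrophil markers moved with the members in the duodenum. Of 12 tested, 7 were lower and 0 higher in week 4 than on day 0, against 20.1% of all genes lower. Their median log2 change was -1.73, or -0.94 with 3 genes at 0 in week 4 set at their bound. In the ileum 3 were lower and 1 higher, against 20.4% of all genes lower (median -1.10, or -0.88 with 1 gene so set). Trem1, a receptor that amplifies neutrophil and monocyte inflammation, was lower in both regions (1.14 to 0.0645 and 1.58 to 0.205 CPM, edgeR adjusted p = 8.4e-07 and 4.7e-05). Stfa2 was at 0.83 ± 0.75 CPM on day 0 and at 0 in the duodenum of week 4. Cxcr4, which is not limited to neutrophils, was the gene that rose in the ileum (1.91 to 11.5 CPM, edgeR adjusted p = 1.8e-06). Summed over 14 markers, the duodenum was at 11.8 to 23.3 CPM on day 0 and 5.30 to 6.54 in week 4. The same sum was at 9.64 to 14.2 CPM on day 0 and 11.2 to 33.5 in week 4 in the ileum, where the groups overlapped.

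Of 10 neutrophil chemoattractants and growth factors 6 were tested. In the duodenum, where all 7 members fell from day 0 to day 8, Csf2 (log2 change -1.86, edgeR adjusted p = 0.0012) and Cxcl2 (-4.25, 0.017) fell and 0 rose. In the ileum 1 rose and 0 fell. Over all genes, 41.2% were called in that interval in the duodenum and 19.3% in the ileum. By week 4, 2 were higher and 0 lower than on day 0 in each region, against 40.5% and 41.9% of all genes called. They were Tnf in both regions, Csf2 in the duodenum and Il1b in the ileum. Tnf had 0.0304 CPM on day 0 and 0.507 in week 4 in duodenum (edgeR adjusted p = 0.0015), and at 0.0278 and 1.68 in the ileum (4.6e-06). Among 7 receptors for the members' products, 1 rose and 4 fell in the duodenum, and 2 rose and 3 fell in the ileum. Lrp2 (megalin), an uptake receptor that binds lactoferrin and lipocalin 2, went from 24.4 down to 0.323 CPM in duodenum and from 30.2 down to 0.981 in ileum, and Lrp1 rose from 106 to 332 and from 104 to 338. Cd36 fell in both regions (log2 changes -2.44 and -3.95). Tlr4, a receptor for calprotectin, fell in the duodenum (1.09 to 0.174 CPM, edgeR adjusted p = 0.00012) and rose in the ileum (0.607 to 1.45, 0.043).

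Of 7 granulocyte transcription factors 6 were tested, with 1 higher and 1 lower in the duodenum and 4 higher and 2 lower in the ileum. Cebpa, needed for granulocyte formation and also made by gut epithelium, was lower in week 4 than at birth, with 33.8 against 90.7 CPM in duodenum and 28.2 against 131 in ileum. Gfi1, a repressor that supports granulocyte maturation, was higher at week 4 (6.79 against 2.61 CPM in ileum, log2 change 1.42 in duodenum).

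Other cell types moved over the same ages. Of 10 monocyte and macrophage markers, 10 fell from day 0 to day 8 in the duodenum, against 19.2% of all genes. In the ileum 0 were called in that interval, against 19.3% of all genes. By week 4, 8 were lower in the duodenum, and 2 were lower and 1 higher in the ileum. Csf1r, the receptor of macrophage growth factor, was at 90.3 ± 19.2 CPM on day 0 and 6.24 ± 1.59 in week 4 in duodenum, and at 77.7 ± 11.5 and 6.59 ± 0.38 in ileum. Monocytes also make S100a8 and S100a9, and the part of these cells in the members' fall was not tested. Of 7 red blood cell genes 6 were lower in week 4 than on day 0 in the duodenum and 0 were called in the ileum. Of 10 epithelial antimicrobial and stress genes, 8 rose in the duodenum and 10 in the ileum. Reg3g, a bactericidal lectin of enterocytes, reached 1409 CPM in duodenum, from 1.52 at birth, and 7111 CPM in ileum, from 0.966.

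**Figure D5:**
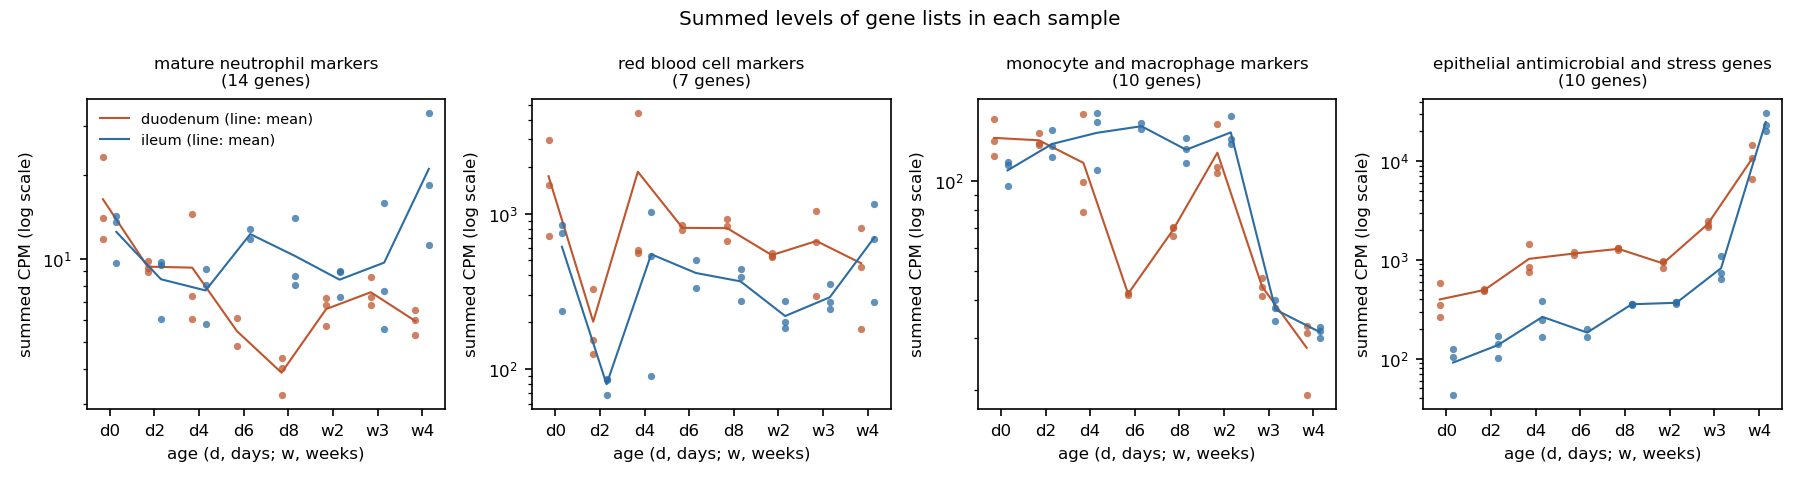
Summed CPM of 4 gene lists in every sample by age and region (logarithmic y axis): mature neutrophil markers, red blood cell markers, monocyte and macrophage markers, and epithelial antimicrobial and stress genes. The antimicrobial sum is highest in week 4 in both regions. The monocyte and macrophage sum is lowest in week 4 in both, at 19.3 to 32.8 CPM in the duodenum and 29.8 to 32.5 in the ileum.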

How the data were processed

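The authors' estimated counts per gene, summarised from transcripts with tximport per the file's name, were whole numbers as deposited. STAR 2.6.1d, Salmon 0.14.2, DESeq2 1.30.1 and build mm10 are named, without roles, in the submitters' processing notes, and the annotation release is not given in the sources used here. The deposited normalized signal tables, each column an estimated count divided by 1 factor, served for gene symbols.

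For 46 samples edgeR 4.0.16 (R 4.3.3) was applied to the counts. Genes kept by filterByExpr (minimum count 10) numbered 21986, libraries were scaled by TMM, and a robust quasi-likelihood model with 16 group means gave 22 contrasts. Benjamini-Hochberg adjustment ran per contrast over all genes, and an adjusted p under 0.05 was called. The SE is the size of the log2 fold change over the root of F. Correlations used log2 CPM with a prior count of 2. The procedure was tested on simulated data.

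The members, the gene lists and the tests were chosen with earlier results of these data known. Named were the 7 members, up to 4 called genes with the smallest adjusted p per list between day 0 and week 4, and the 3 genes most correlated with each member. Alternatives were RLE size factors, no filter, a mean count of at least 10, DESeq2 1.42.0, only the compared groups, a replicate block, all 48 samples, no day 4 samples, and each sample left out. Promoters are RefSeq's, and 7 of 7 members matched. The day 6 samples numbered 3 were left out because their expression looked exchanged between regions.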

Additional observations from a re-analysis of the deposited data

Results flagged for a closer look

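The age courses of Camp and Ltf differed between duodenum and ileum by the interaction of region and age (edgeR adjusted p = 0.000297 for Camp and 0.00703 for Ltf). Camp was higher in the duodenum at birth and in the ileum in week 2, in group means, and Ltf was higher in the ileum through week 2 and overlapped between regions in week 3 and week 4.

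The pair of day 6 libraries left out of all comparisons held members above 3 counts. The library labelled duodenum sample 3 had Ltf at 5.34 CPM, S100a9 at 0.23 CPM, and Camp and S100a8 at 0.115 CPM each. The library labelled ileum sample 3 had Ltf at 1.15 CPM, Ngp at 0.976 CPM and Lcn2 at 0.382 CPM. In the samples that were used, duodenum had Ltf at 0.653 and 0.934 CPM and ileum at 6.12 and 16.3 CPM on day 6. Ltf of the library labelled duodenum thus lay nearer to the ileum samples, and Ltf of the library labelled ileum nearer to the duodenum samples.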

How the results depend on the processing

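Of 1844 refits of single member results, 1721 kept direction and side of the threshold, 89 lost the call, 29 gained one, 4 uncalled values changed sign and 1 called value did. That value was the Lcn2 difference between regions on day 0 (0.13 on the log2 scale without duodenum day 0 samples 2 and 3, an alternative chosen after seeing the data). The same alternative left 4 of 7 members called from day 0 to week 4 in the duodenum. Fitting only the compared groups covered 81 of the 154 member tests, and the filter on mean counts covered 110 of them. In the fits of only the compared groups, 2 members were called from day 0 to week 4 in the ileum. The same fits called 3 interval tests in the ileum and 11 region tests. Members not tested there cannot be counted as lost calls. With all 48 samples 1 member had an interaction, and the day 6 region calls of Ltf and Camp were lost (edgeR adjusted p = 0.74 each), as was the Ltf interaction (0.28). Without day 4 samples 4 members had an interaction. With each sample left out in turn, 2 to 4 members had an interaction, 15 to 20 region tests were called, 2 to 4 members differed between regions on average, and 6 or 7 (duodenum) and 3 to 5 (ileum) members were called from day 0 to week 4. Where a group was left with 1 sample, it was assumed to vary as the others do. DESeq2 gave no adjusted p in 15 of 154 member tests, which are left out of the lost calls. The cause of these shifts was not tested. Mpo and Camp were mostly at or under 3 counts, so small differences in them were not detectable at this depth.

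The labels do not say whether same-numbered samples share an animal, and a correlation over 0.1 in every pair, required here to treat them as paired, was not met. The deviations of same-numbered duodenum and ileum samples correlated over 0.1 in 16 of 23 pairs (-0.36 to 0.67). All pairs of day 0, day 2, week 2 and week 3 were over 0.1 (0.129 to 0.547). The 2 pairs of day 6 share 1 value (0.187), since each group there had 2 samples. With the number as a replicate block, 14 of 56 region tests (without S100a8 and Lcn2 on day 0 and Camp on day 4 and in week 3), 8 and 7 of 28 interval tests (duodenum and ileum), 7 and 7 of 7 age effects, 7 and 4 of 7 week 4 changes, 3 average region differences and 2 interactions were called.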
